A study of Homo sapiens with 36 samples.

Results

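The transcriptional answer of APE1-depleted OE33 cells to acidic bile salts was measured in 12 polyA RNA-seq libraries, out of 36 in the series. OE33 is an established human oesophageal adenocarcinoma line of epithelial cells, kept here in RPMI1640. All 12 libraries came from cells that stably carried an shRNA against APE1 (gene symbol APEX1), including the libraries without bile salts. The groups were OE33-shAPE1#1-ABS and OE33-shAPE1#3-ABS, each set against its own unexposed cells, OE33-shAPE1#1 and OE33-shAPE1#3. ABS stands for a cocktail of acidic bile salts at 200 µM and pH 4, given for 20 min, after which the cells recovered for 6 h before RNA was taken. Each group had 3 biological replicates described as independent, so 6 libraries stood on each side, and every expressed gene was examined with the shRNA group as a block. The same exposure of OE33 cells with a non-targeting shRNA (6 libraries, OE33-shControl-ABS against OE33-shControl) and of FLO1 cells with the shAPE1 constructs (12 libraries) served for comparison. The question behind the design was how APE1 bears on the adaptation of these cancer cells to reflux.

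APE1 is the main apurinic endonuclease of base excision repair, and it also acts as a redox factor that keeps several transcription factors in a reduced, DNA-binding state. Bile acids at low pH cross membranes, give rise to reactive oxygen species and disturb protein folding in the endoplasmic reticulum. In the oesophagus, reflux of acid and bile is the known driver of the columnar change called Barrett's oesophagus, from which adenocarcinoma arises. A folding stress in the endoplasmic reticulum is met by the unfolded protein response, which raises chaperones such as BiP, while oxidants and planar aromatic ligands are met through the transcription factors NRF2 and AHR.

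The 12 libraries held 20.7 M to 38.0 M counted reads, with 20457 to 22689 genes detected and 3.07 to 4.07% of reads from mitochondrial genes. Libraries of the same group differed by more than counting noise (chi-square per degree of freedom 3.12 to 26.3 over genes), so none was a copy of another. All 12 epithelial markers on a list of 12 (EPCAM, CDH1, keratins and others) exceeded 10 CPM (counts scaled to a library total of 1e6) in each of the 12 libraries. Of the markers of other cells, 8 of 10 for fibroblasts, 5 of 10 for immune cells and 8 of 9 for endothelium stayed below 0.5 CPM throughout. The immune markers NKG7 and MS4A1 were at 0 CPM in all 12. APEX1 itself (chr14:20455191-20457772, plus strand, GRCh38) had 21.6, 24.8 and 20.8 CPM in shAPE1#3 cells after ABS, against 21.2, 22.1 and 22.2 CPM in unexposed shAPE1#3 cells. It had 22.8, 27.6 and 26.2 CPM in shAPE1#1 cells after ABS, against 23.1, 25.9 and 22.8 CPM without it. In shControl cells it had 171.3 to 182.5 CPM after ABS and 191.6 to 197.8 CPM unexposed, so depletion was visible in every shAPE1 library. The ABS response of APEX1 in the depleted cells was a log2 change of 0.06 ± 0.07 (SE), which did not pass the quasi-likelihood test of edgeR (Benjamini-Hochberg adjusted p = 0.617).

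Some libraries stood apart in genes of gastric mucous cells. TFF2, a trefoil peptide of those cells, had 7.38, 3.47 and 7.49 CPM in the 3 libraries of OE33-shAPE1#3-ABS and 1.98 to 8.44 CPM in 6 FLO1 libraries of both exposures, but at most 0.317 CPM in the other 27 libraries of the series. MUC5AC, the gel-forming mucin of the gastric surface, was at 3.01 to 8.36 CPM in those 6 FLO1 libraries and at 0 to 1.33 CPM in the other 12. A further 33 genes, chosen because FLO1 libraries held them at a mean of 50 CPM or more and OE33-shControl libraries at 0.05 CPM or less, reached 0.0492 to 0.167% of their FLO1 level in the OE33 shAPE1 libraries and 0.0051 to 0.0249% in the OE33 shControl libraries. The choice of these genes itself keeps the shControl share low, so it cannot be set against the shAPE1 share. Summed over the 12 mesenchymal markers, which FLO1 cells express at 2926 to 3603 CPM, OE33 shAPE1 libraries ranged over 512.7 to 741.6 CPM after ABS and 425.2 to 639.3 CPM unexposed. FN1, at 407 to 720 CPM in the shAPE1 libraries, made up most of that sum, while VIM was at no more than 7.18 CPM, and the shControl sums were 331.1 to 387.0 CPM after ABS and 229.6 to 259.5 CPM unexposed. Where the TFF2-bearing RNA came from was not tested. The 9 libraries with TFF2 at 1 CPM or more are called those that hold TFF2, and results that rest on them are given with and without them. All 9 are shAPE1 libraries, and no shControl library of either line is among them. Their serial numbers are 4536 to 4540, 4560 to 4562 and 4565, and the labels do not say what these numbers stand for.

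**Figure D1:**
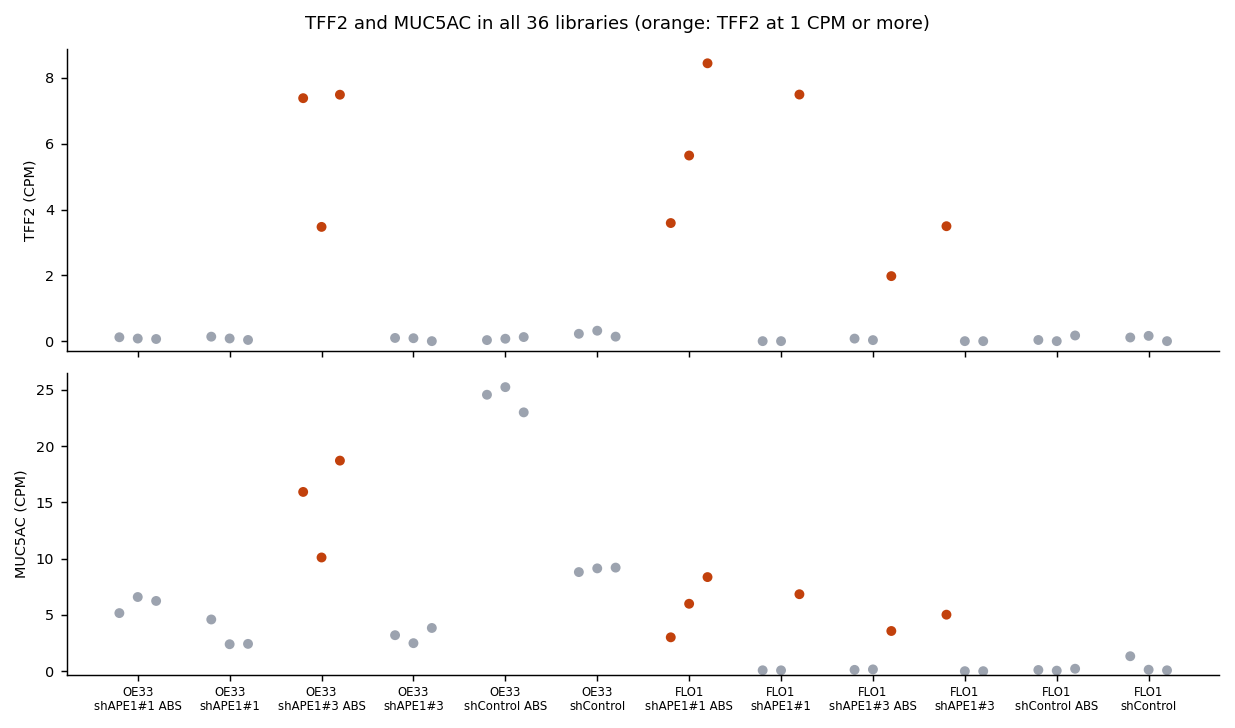
CPM of TFF2 and MUC5AC in all 36 libraries of the series, 1 point per library, by group and with ABS groups left of their unexposed groups. TFF2 lies at 3.47 to 7.49 CPM in all 3 OE33-shAPE1#3-ABS libraries and at 1.98 to 8.44 CPM in 6 FLO1 libraries, and at no more than 0.317 CPM in the other 27.

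ABS changed the expression of 1814 of 15048 tested genes (12.1%) in the depleted cells, 1121 of them higher (7.45%) and 693 lower (4.61%), by the quasi-likelihood test of edgeR at a Benjamini-Hochberg adjusted p under 0.05. The changes were small. The median size among called genes was 0.27 on the log2 scale, 139 genes moved by at least 1.5-fold and 35 by at least 2-fold. The higher end held CYP1A1, a monooxygenase of aromatic compounds, HSPA5, the chaperone BiP, and OAS1, an interferon-induced antiviral enzyme. The lower end held the transcriptional regulators ID3 and ID1, the G protein regulator RGS2 and DDIT3, which encodes CHOP. In bulk RNA, fewer cells expressing a gene and less RNA of it per cell cannot be told apart. Leaving out 1 library at a time gave 995 calls (without OE33-shAPE1#3-ABS replicate 3) to 2445 calls (without OE33-shAPE1#1 replicate 2). The count also moved by over 1.5 times without OE33-shAPE1#1 replicate 3 (1104), OE33-shAPE1#3 replicate 1 (1179) and OE33-shAPE1#3 replicate 2 (1069). Without the 3 libraries that hold TFF2, which leaves the response of shAPE1#1 cells, 298 genes were called, 211 higher and 87 lower. Every ABS library of shAPE1#3 cells is absent from that setting, here and in the lists below. Whether a call lost in it depends on TFF2-bearing RNA was not tested.

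The shRNA groups were also fitted one by one. Of the 1814 genes called jointly 1812 had the same sign in both, which the joint call nearly fixes and which is no measure of agreement. In 675 of the genes called higher and 287 of those called lower, the ABS and unexposed libraries did not overlap within either group, while 5.35% and 2.49% of all tested genes showed that separation upward and downward, a comparison that the joint call also favours. Taken alone, shAPE1#3 cells had 215 called genes (1.43% of those tested, with 177 or 1.18% higher and 38 or 0.253% lower) and shAPE1#1 cells had 333 (2.21%, with 246 or 1.63% higher and 87 or 0.578% lower). The 143 genes called in both with 1 sign (0.95% of those tested, 118 higher and 25 lower) were 66.5% of the shAPE1#3 calls and 42.9% of the shAPE1#1 calls, and no gene was called in opposite directions. Of the shAPE1#3 calls 208 had the same sign in shAPE1#1 cells, and of the shAPE1#1 calls 329 had the same sign in shAPE1#3 cells, against 73.6% of all tested genes. Across all genes, which are not independent replicates, the log2 responses of the groups had a Pearson r of 0.353 and a Spearman rho of 0.52.

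**Figure D2:**
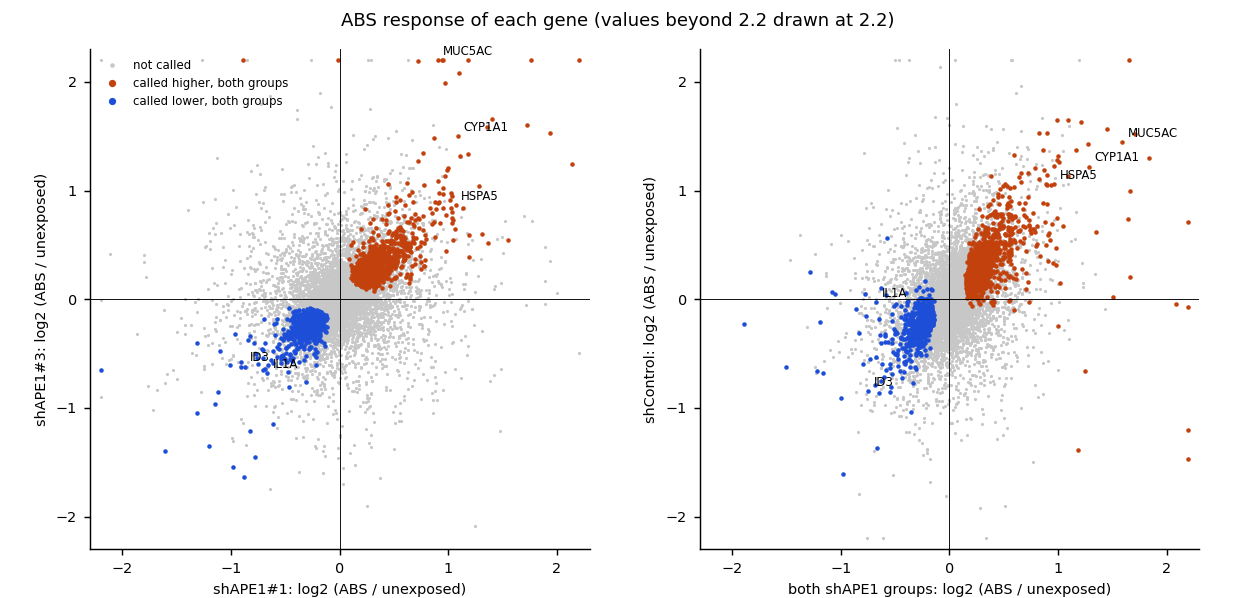
Log2 change after ABS, 1 point per tested gene, with called genes in colour and values beyond ±2.2 drawn at the edge. The left panel has shAPE1#3 on the vertical and shAPE1#1 cells on the horizontal axis, and the right panel has all shAPE1 cells on the horizontal and shControl cells on the vertical axis. In the left panel the coloured genes were chosen on both axes, so their place there is set by that choice. In the right panel, where the vertical axis had no part in the choice, 1767 of 1814 have the same sign on both axes.

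Chaperones of the endoplasmic reticulum formed the clearest group among the higher genes. Of the 22 tested members of the list for ER chaperones and the unfolded protein response, 13 rose and 1 fell, while 7.45% of all tested genes rose and 4.61% fell. The list's median log2 change was 0.253, against -0.002 over all tested genes. In the lists below, counts of the joint response are to be read against the same shares of all tested genes. HSPA5 (chr9:125234853-125241330, minus strand), the chaperone that holds the stress sensors inactive until unfolded proteins draw it away, had 1399, 1374 and 1406 CPM in shAPE1#3 cells after ABS, against 769.6, 770.3 and 763.9 CPM unexposed. In shAPE1#1 cells it had 1602, 1599 and 1441 CPM after ABS and 748.0, 706.5 and 733.5 CPM unexposed. Every ABS library lay far above every unexposed library. The change was 1.95-fold (log2 0.97 ± 0.05, edgeR adjusted p = 3.93e-11). The promoter of HSPA5 is printed because its ER stress response element, a site that factors of the unfolded protein response are known to bind, lies within the window. It is RefSeq's sequence from build GRCh38.p14, chr9:125241294-125241593 on the minus strand, 250 bases before to 50 after the gene's start, with the element, which is CCAAT and CCACG with 9 free bases between them (searched on both strands), in capitals.
HSPA5: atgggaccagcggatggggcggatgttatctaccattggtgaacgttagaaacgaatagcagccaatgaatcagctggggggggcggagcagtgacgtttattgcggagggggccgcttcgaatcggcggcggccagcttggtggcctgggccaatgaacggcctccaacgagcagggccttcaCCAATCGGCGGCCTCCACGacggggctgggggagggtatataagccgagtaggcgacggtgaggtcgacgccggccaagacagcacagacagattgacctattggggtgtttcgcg

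That element, at -66 from the start in HSPA5, occurs in 27 of 35116 RefSeq promoters of this length (0.0769%) and in 6 of the 21 list members with a promoter in the table, namely HSPA5, HSP90B1, CRELD2, CALR, CANX and XBP1. A match describes the letters only. HYOU1, a large chaperone of the ER lumen that works with BiP, had 282.6, 263.9 and 305.9 CPM in shAPE1#3 cells after ABS, against 186.1, 179.7 and 201.1 CPM unexposed. Levels in shAPE1#1 cells were 310.4, 294.4 and 296.6 CPM after ABS, against 177.1, 173.4 and 165.8 CPM unexposed, so the exposures did not overlap in either group (log2 0.69 ± 0.05, edgeR adjusted p = 2.56e-08). Its promoter window held no match to the element's letters, and neither did those of SEL1L and MANF. That says nothing of a site with another spelling. SEL1L, the adaptor that passes misfolded proteins to the ligase HRD1, rose by a log2 change of 0.57 ± 0.08, and SYVN1, which encodes HRD1, by 0.35 ± 0.06. MANF, a secreted protein induced by ER stress, rose by 0.56 ± 0.07 and its fellow target CRELD2 by 0.56 ± 0.06. The BiP cochaperones DNAJC3 (0.55 ± 0.08) and DNAJB11 (0.50 ± 0.06), the chaperones HSP90B1 (0.42 ± 0.06) and CALR (0.22 ± 0.05) and the disulfide isomerases PDIA4 (0.36 ± 0.05) and PDIA3 (0.19 ± 0.05) rose as well. DNAJB9, a cochaperone that represses the sensor IRE1, was the member that fell (-0.34 ± 0.09). Without the libraries that hold TFF2, 9 members were higher and 0 lower by edgeR's quasi-likelihood test.

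The integrated stress response, in which phosphorylation of eIF2α favours translation of ATF4 and then its target genes, did not move as a block. Of 22 tested members, 4 rose and 2 fell, with a list median of 0.023. With the libraries that hold TFF2 left out, 0 rose and 1 fell by edgeR, and the calls of ATF4 (adjusted p = 0.197), SESN2 (0.12) and DDIT4 (0.0717) were lost. ATF4 rose by 0.28 ± 0.05, its target SESN2, an inhibitor of mTORC1, by 0.38 ± 0.09 and the factor ATF5 by 0.23 ± 0.06. DDIT3 (chr12:57516588-57521737, minus strand), the proapoptotic factor CHOP, had 9.73, 9.42 and 10.2 CPM in shAPE1#3 cells after ABS, against 13.7, 14.9 and 14.7 CPM unexposed. Its shAPE1#1 libraries had 10.5, 9.29 and 10.4 CPM after ABS, against 14.1, 16.5 and 15.8 CPM unexposed. All 6 ABS libraries were below all 6 unexposed ones, and DDIT3 fell by 0.59 on the log2 scale (SE 0.07, edgeR adjusted p = 1.83e-05). DDIT4, another inhibitor of mTORC1 signalling, fell by 0.33 (SE 0.07). HSPA5 and DDIT3, both known targets of ER stress signalling, thus moved in opposite directions at this time point.

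**Figure D3:**
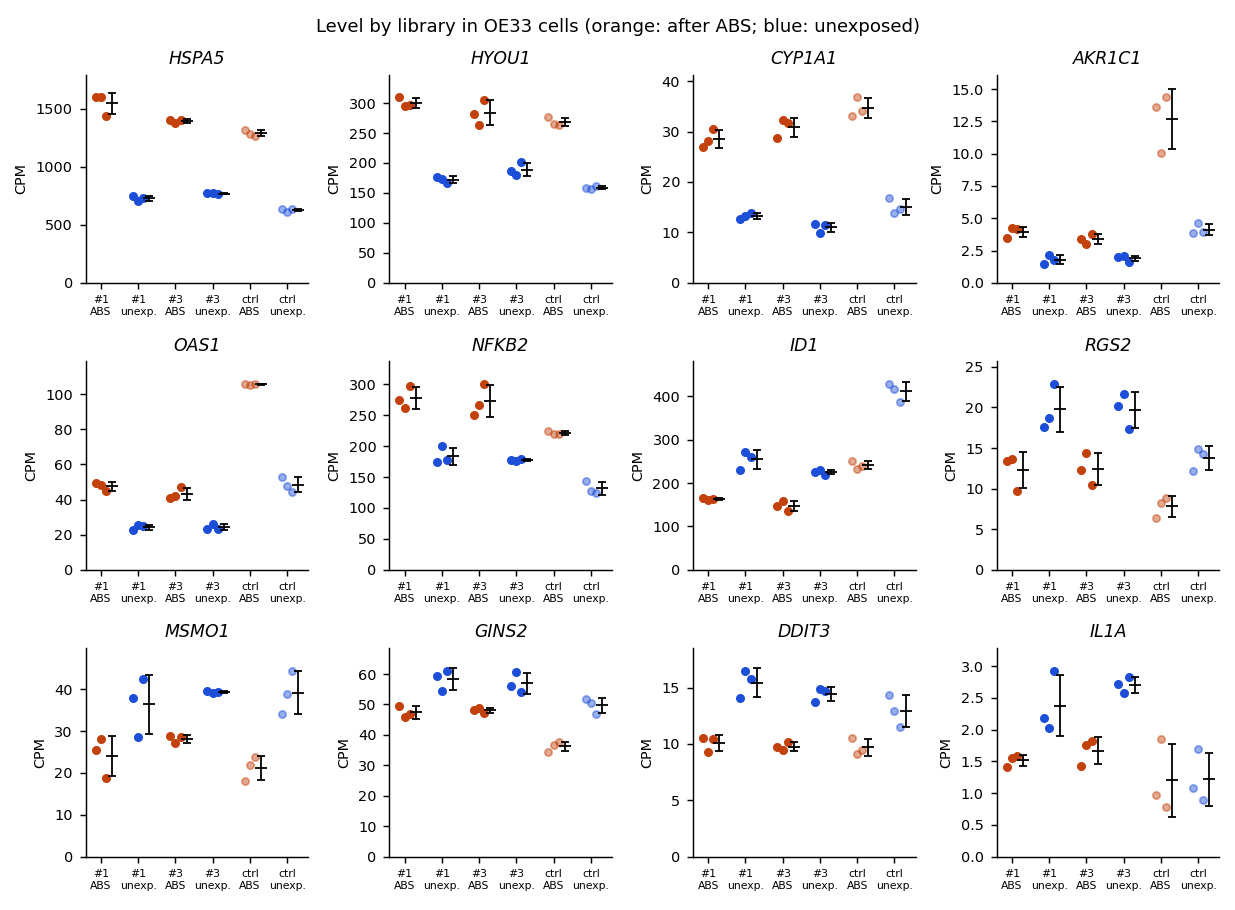
CPM per library of 12 named genes, with ABS libraries (orange) left of unexposed libraries (blue) for shAPE1#1, shAPE1#3 and, paler, shControl cells, and a bar at the mean ± SD of 3 libraries. HSPA5 lies at 1374 to 1602 CPM after ABS and 706.5 to 770.3 CPM unexposed in the shAPE1 cells, and DDIT3 at 9.29 to 10.5 CPM after ABS and 13.7 to 16.5 CPM unexposed.

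Genes of the interferon response were higher as well. Of 26 tested members of the interferon-stimulated list, 10 rose and none fell, and the list median was 0.269. Leaving out the libraries that hold TFF2, 3 rose and 0 fell by edgeR's quasi-likelihood test. OAS1 (chr12:112906777-112933222, plus strand), a sensor of double-stranded RNA that activates RNase L, had 40.7, 42.2 and 47.1 CPM in shAPE1#3 cells after ABS, against 23.3, 26.3 and 23.4 CPM unexposed. For shAPE1#1 cells the values were 49.4, 48.2 and 44.7 CPM after ABS, against 22.6, 25.4 and 24.7 CPM unexposed. No ABS library reached down to the unexposed range (1.86-fold, log2 0.89 ± 0.06, edgeR adjusted p = 7.32e-09). Its relative OAS3 rose by 0.50 ± 0.06, IFIH1, which encodes the RNA sensor MDA5, by 0.43 ± 0.08, and STAT2, the factor that carries type I interferon signals, by 0.47 ± 0.08. MX1 (0.41 ± 0.08), OASL (0.40 ± 0.10), IRF7 (0.40 ± 0.08), IFIT3 (0.37 ± 0.07), IFI44 (0.27 ± 0.09) and IRF1 (0.24 ± 0.06) made up the rest.

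The promoters of the 4 interferon-stimulated genes with the largest rise were searched for a single spelling of the interferon-stimulated response element. STAT2-containing complexes are known to bind at that element. The promoters are RefSeq sequences of build GRCh38.p14, from 250 bases before to 50 after each gene's start. OAS1 spans chr12:112906712-112907011 and OAS3 chr12:112938224-112938523, both on the plus strand. STAT2 spans chr12:56360058-56360357 and IFIH1 chr2:162318635-162318934, both on the minus strand. Capitals mark GAAA followed by GAAA with 2 free bases between them, on either strand.
OAS1: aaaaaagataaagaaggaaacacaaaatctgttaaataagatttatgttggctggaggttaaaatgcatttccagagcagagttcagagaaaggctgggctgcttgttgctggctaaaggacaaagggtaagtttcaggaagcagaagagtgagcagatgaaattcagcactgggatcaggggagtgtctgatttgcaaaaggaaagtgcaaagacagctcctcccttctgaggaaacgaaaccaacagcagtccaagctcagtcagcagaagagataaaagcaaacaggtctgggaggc
OAS3: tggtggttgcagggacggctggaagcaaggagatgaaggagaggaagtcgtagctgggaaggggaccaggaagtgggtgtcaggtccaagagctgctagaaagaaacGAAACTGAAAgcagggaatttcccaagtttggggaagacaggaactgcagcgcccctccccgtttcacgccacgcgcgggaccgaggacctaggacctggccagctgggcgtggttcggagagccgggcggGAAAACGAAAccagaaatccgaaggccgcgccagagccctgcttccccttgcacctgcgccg
STAT2: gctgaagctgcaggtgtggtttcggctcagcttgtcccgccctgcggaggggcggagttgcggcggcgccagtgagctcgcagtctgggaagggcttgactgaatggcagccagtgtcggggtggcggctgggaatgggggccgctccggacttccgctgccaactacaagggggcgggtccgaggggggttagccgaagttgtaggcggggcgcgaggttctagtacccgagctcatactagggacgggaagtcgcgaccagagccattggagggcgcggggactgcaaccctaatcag
IFIH1: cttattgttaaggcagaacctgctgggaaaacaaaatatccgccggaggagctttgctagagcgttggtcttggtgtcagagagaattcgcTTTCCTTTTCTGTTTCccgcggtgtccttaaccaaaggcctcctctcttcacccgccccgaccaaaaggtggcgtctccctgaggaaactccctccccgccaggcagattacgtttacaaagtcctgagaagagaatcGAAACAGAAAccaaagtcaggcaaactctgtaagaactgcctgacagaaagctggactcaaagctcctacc

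OAS3 held 2 matches, at -143 and -12 from its start. IFIH1 held 3, of which the pair at -159 and -153 overlap on the opposite strand, and the last lies at -21. The windows of OAS1 and STAT2 hold no run of these exact letters, which says nothing of the factor at a site with another spelling. The OAS1 window does hold a pair of GAAA set closer together than the search allowed. The motif occurs in 1255 of 35116 promoters of this length (3.57%), in 13 of the 19 list members with a promoter in the table, and in 5 of the 8 of those that rose.

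NF-κB, a family of dimeric factors held in the cytoplasm by IκB proteins and released by inflammatory and stress signals, was represented by 21 tested genes, of which 10 rose and 2 fell (list median 0.227). NFKB2, which encodes the p100 precursor of the non-canonical arm, had 249.8, 266.8 and 301.1 CPM in shAPE1#3 cells after ABS, against 178.0, 175.7 and 179.3 CPM unexposed. In shAPE1#1 cells it had 274.8, 262.5 and 297.4 CPM after ABS, against 173.8, 199.8 and 177.8 CPM unexposed. The ranges stayed apart in both groups (1.52-fold, log2 0.60 ± 0.06, edgeR adjusted p = 4.68e-07). Its partner RELB rose by 0.45 ± 0.07, RELA by 0.27 ± 0.05 and NFKB1 by 0.17 ± 0.05. The inhibitors NFKBIA (0.38 ± 0.06), NFKBIE (0.28 ± 0.06) and NFKBIB (0.28 ± 0.07) rose too, as did the deubiquitinase TNFAIP3 (0.35 ± 0.05) and the adhesion molecule ICAM1 (0.43 ± 0.10). The cytokines on the list went the other way. IL1A had 1.42, 1.76 and 1.83 CPM in shAPE1#3 cells after ABS, against 2.71, 2.58 and 2.83 CPM unexposed, and it fell by 0.67 over both groups (SE 0.14). IL1B, at 0.197 to 0.846 CPM after ABS and 0.850 to 1.31 CPM unexposed, fell by 0.98 (SE 0.26). When TFF2-holding libraries were left out, 3 members were higher and 0 lower by edgeR's quasi-likelihood test.

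Immediate early genes, the factors of the FOS, JUN, EGR and KLF families that answer growth and stress signals within minutes, were partly higher after 6 h of recovery. Of 31 tested, 9 rose and 2 fell, with a median of 0.160. Without the libraries that hold TFF2, 1 rose and 1 fell, and the calls of ATF3 (adjusted p = 0.122 in edgeR) and ZFP36 (0.0649) were lost. FOSB had 4.73, 5.87 and 7.20 CPM in shAPE1#3 cells after ABS, against 3.39, 3.73 and 3.20 CPM unexposed, and 5.47, 8.37 and 6.82 CPM in shAPE1#1 cells after ABS, against 4.32, 3.12 and 3.80 CPM unexposed. The exposures did not overlap within either group, and the rise was 0.82 ± 0.12. ATF3, a stress-induced factor of the ATF/CREB family, rose by 0.38 ± 0.09, KLF4 by 0.33 ± 0.06, JUN and JUNB by 0.26 ± 0.06 each, and ZFP36, which speeds decay of AU-rich mRNA, by 0.35 ± 0.06. DUSP6, the phosphatase that ERK signalling induces and that inactivates ERK, fell by 0.35 (SE 0.06), and IER3 fell by 0.24 (SE 0.06).

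Ligands and feedback genes of the EGF receptor split in the same way. Of 12 tested members, 4 rose and 3 fell. The ligand HBEGF rose by 0.42 ± 0.09, and the receptors EGFR (0.24 ± 0.07), ERBB3 (0.23 ± 0.06) and ERBB2 (0.17 ± 0.06) rose by less. The ligand AREG had 169.5, 184.3 and 165.2 CPM in shAPE1#3 cells after ABS, against 215.4, 224.2 and 210.7 CPM unexposed. Levels in shAPE1#1 cells were 169.6, 180.2 and 169.0 CPM after ABS, against 217.8, 244.3 and 240.9 CPM unexposed. These ranges did not overlap, and AREG fell by 0.39 (SE 0.05). The ligand EREG fell by 0.29 (SE 0.07), though its libraries overlapped in shAPE1#1 cells, and ERRFI1, the feedback inhibitor of the receptor, by 0.40 (SE 0.06). With DESeq2's size factors in edgeR the split of calls was 3 and 3. With the libraries that hold TFF2 left out, 0 rose and 2 fell by edgeR, and the calls of HBEGF (adjusted p = 0.118) and EREG (0.177) were lost.

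Of the 10 tested genes of the aryl hydrocarbon receptor pathway, 3 rose and none fell (list median 0.117), and 2 rose and none fell without the libraries that hold TFF2. CYP1A1 (chr15:74719542-74725610, minus strand), the pathway's most responsive target, had 28.7, 32.3 and 31.6 CPM in shAPE1#3 cells after ABS, against 11.6, 9.91 and 11.5 CPM unexposed. Its shAPE1#1 libraries had 26.9, 28.1 and 30.5 CPM after ABS, against 12.7, 13.2 and 13.9 CPM unexposed. No gene with a mean of at least 2 CPM and libraries that did not overlap rose by more, save MUC5AC, which is described below with the libraries that stand apart. CYP1A1 rose 2.44-fold (log2 1.29 ± 0.08, edgeR adjusted p = 8.15e-10). AHRR, the repressor that AHR induces against itself, had 5.23 to 7.24 CPM after ABS and 2.71 to 4.63 CPM unexposed, with no overlap, and rose by 0.94 ± 0.12. ALDH3A1, an aldehyde dehydrogenase, rose by 0.28 ± 0.08, a call that was lost in 5 of the 12 fits without 1 library.

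NRF2 is released from KEAP1 by oxidants and electrophiles and raises enzymes of glutathione and quinone metabolism. Of 29 tested targets, 9 rose and 1 fell (list median 0.116). Leaving out the libraries that hold TFF2, 6 rose and 0 fell by edgeR, and the call of HMOX1 was lost. AKR1C1, a steroid and carbonyl reductase, had 3.38, 2.97 and 3.76 CPM in shAPE1#3 cells after ABS, against 1.99, 2.04 and 1.64 CPM unexposed. For shAPE1#1 cells the values were 3.50, 4.21 and 4.14 CPM after ABS, against 1.43, 2.15 and 1.77 CPM unexposed. The exposures stayed apart (1.99-fold, log2 0.99 ± 0.14, edgeR adjusted p = 5.45e-05), with the reservation that reads of AKR1C1 and its near-identical relatives may be shared among them. Among the members not called were AKR1C2 (-0.15 ± 0.17), AKR1C3 (0.16 ± 0.13) and NQO1 (0.004 ± 0.05). HMOX1, which degrades haem, rose by 0.74 ± 0.13, UGDH, which makes UDP-glucuronic acid, by 0.51 ± 0.06, and both subunits of the enzyme that limits glutathione synthesis, GCLM and GCLC, by 0.48 ± 0.05 and 0.37 ± 0.05. SQSTM1 (0.45 ± 0.05), SRXN1 (0.43 ± 0.07) and TXNRD1 (0.30 ± 0.05) rose as well, while thioredoxin itself, TXN, fell by 0.22 (SE 0.06).

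Of the receptors, transporters and enzymes that handle bile acids, 11 of 23 had enough counts to be tested, and the nuclear receptor FXR (NR1H4), the membrane receptor GPBAR1 and the importer SLC10A2 were among those that had not. The exporters ABCC2 (0.52 ± 0.12) and ABCG2 (0.36 ± 0.06) rose. S1PR2, a receptor of conjugated bile acids, was called higher (0.37 ± 0.12) and ABCC4, an exporter, lower (-0.21 ± 0.06), but each call was lost in 9 of the 12 fits without 1 library. None of the 11 was called without the libraries that hold TFF2, by edgeR's quasi-likelihood test.

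Sterol genes were lower. SREBP2, the membrane-bound factor that cells release when cholesterol is short, drives the enzymes of cholesterol synthesis together. Of 25 tested members, 11 fell and none rose, with a list median of -0.163. HMGCS1, which makes HMG-CoA, had 84.3, 91.0 and 97.1 CPM in shAPE1#3 cells after ABS, against 122.3, 113.2 and 116.3 CPM unexposed. In shAPE1#1 cells it had 88.8, 88.9 and 79.6 CPM after ABS, against 130.8, 110.2 and 129.0 CPM unexposed. All ABS libraries were below all unexposed ones, and HMGCS1 fell by 0.45 (SE 0.06, edgeR adjusted p = 2.11e-05). MSMO1, a C4-methyl sterol oxidase, fell by 0.55 (SE 0.09), the squalene synthase FDFT1 by 0.36 (SE 0.05) and mevalonate kinase (MVK) by 0.33 (SE 0.07). In contrast, NPC1, which exports cholesterol from lysosomes, rose by 0.28 ± 0.06. It belonged to a list of 22 lysosomal and autophagy genes of which 4 rose and none fell, led by GABARAPL1, an ATG8 family protein of autophagosomes (0.55 ± 0.06). When TFF2-holding libraries were left out, 1 of the 22 was called and NPC1 was not. Without the libraries that hold TFF2, 5 sterol genes fell and 0 rose by edgeR's quasi-likelihood test.

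Heat shock genes, mostly of the cytosol, are raised by HSF1 when cytosolic proteins unfold. Of 19 tested members, 6 were lower and 1 was higher, with a median of -0.115. With the libraries that hold TFF2 left out, 2 were lower and 1 higher, and the calls of HSPA4L (adjusted p = 0.101 in edgeR) and HSPA6 (0.142) were lost. HSPA8, the constitutive cytosolic chaperone, had 1874, 1875 and 1788 CPM in shAPE1#3 cells after ABS, against 2343, 2374 and 2327 CPM unexposed. Levels in shAPE1#1 cells were 1846, 1864 and 1842 CPM after ABS, against 2567, 2585 and 2602 CPM unexposed. The libraries of each exposure lay close together and well apart from the others, and HSPA8 fell by 0.42 (SE 0.05, edgeR adjusted p = 5.47e-06). The cochaperone DNAJB1 fell by 0.31 (SE 0.05), HSPA4L by 0.34 (SE 0.08) and the mitochondrial cochaperonin HSPE1 by 0.21 (SE 0.06). HSPA1B (-0.26 ± 0.06) and HSPA6 (-0.35 ± 0.10, a call lost in 5 of the 12 fits without 1 library) were the other members called lower, and HSPA1L, which was on no list, fell too (-0.55 ± 0.11), but the reads of these 3 may be shared with near-identical HSP70 genes. Among the members not called was HSPA1A (-0.01 ± 0.06). The small heat shock protein HSPB1 was the member that rose (0.43 ± 0.07).

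DNA replication genes were lower. Of 30 tested, 13 fell and none rose, with a median of -0.141. GINS2, a subunit of the replicative helicase, had 48.2, 48.9 and 47.2 CPM in shAPE1#3 cells after ABS, against 55.9, 60.8 and 54.1 CPM unexposed, and 49.7, 45.7 and 46.8 CPM in shAPE1#1 cells after ABS, against 59.5, 54.4 and 61.1 CPM unexposed. The exposures did not overlap, and GINS2 fell by 0.28 (SE 0.06). The primase subunit PRIM1 fell by 0.33 (SE 0.07), the clamp loader subunits RFC3, RFC4 and RFC5 by 0.30 (SE 0.07), 0.28 (SE 0.06) and 0.25 (SE 0.06), and the helicase subunit MCM6 by 0.25 (SE 0.05). The libraries of RFC3 overlapped between exposures in shAPE1#1 cells, and those of PRIM1 in neither group. Leaving out the libraries that hold TFF2, 1 of the 30 fell and 0 rose by edgeR's quasi-likelihood test.

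Few repair and mitosis genes were called, in shares to be read against the 4.61% of all tested genes called lower and the 7.45% called higher. Of 23 base excision repair genes other than APEX1, 3 fell and none rose. These were PCNA, the sliding clamp (-0.26 ± 0.05), the glycosylase NEIL2 (-0.26 ± 0.06) and the uracil glycosylase UNG (-0.18 ± 0.05, lost in 5 of the 12 fits without 1 library). Of 26 genes of homologous recombination and the Fanconi pathway, the helicase BLM (-0.27 ± 0.07) and FANCI (-0.18 ± 0.05, lost in 2 of the 12 such fits) fell. Of 25 mitotic genes 3 fell, the spindle checkpoint gene MAD2L1 (-0.30 ± 0.07), the kinase CDK1 (-0.31 ± 0.08, lost in 2 fits) and the securin PTTG1 (-0.25 ± 0.07, lost in 5 fits). Among 24 p53 targets, CDKN1A and PHLDA3 were called higher, by 0.17 ± 0.05 and 0.23 ± 0.07, and each call was lost in 10 of the 12 fits. When TFF2-holding libraries were left out, 1 base excision repair gene, 0 recombination genes, 1 mitotic gene and 0 p53 targets were called by edgeR.

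BMP signals raise ID1, ID2 and ID3, which block basic helix-loop-helix factors, through SMAD proteins. All 3 fell, in a list of 13 tested genes of which 4 rose and 3 fell. Without the libraries that hold TFF2, 2 of the 13 rose and 3 fell by edgeR, ID1 and ID3 among the latter. ID1 (chr20:31605283-31606515, plus strand) had 146.9, 158.9 and 135.1 CPM in shAPE1#3 cells after ABS, against 226.0, 229.9 and 219.4 CPM unexposed. Its shAPE1#1 libraries had 166.0, 161.0 and 163.2 CPM after ABS, against 231.1, 272.4 and 260.7 CPM unexposed. Every ABS library was below every unexposed one, and ID1 fell by 0.63 (SE 0.06, edgeR adjusted p = 1.49e-07). ID3 fell by 0.75 (SE 0.09) and ID2 by 0.45 (SE 0.07). Other genes of the same list of 13 rose, among them the ligand BMP2 (0.56 ± 0.09), the pseudoreceptor BAMBI (0.45 ± 0.08) and the inhibitory SMAD7 (0.24 ± 0.07). BAMBI was not called without the libraries that hold TFF2 (edgeR adjusted p = 0.0606). RGS2, which limits signalling through Gq-coupled receptors, had 10.5 to 14.4 CPM in shAPE1#3 cells after ABS, against 17.3 to 21.7 CPM unexposed, and fell by 0.68 over both groups (SE 0.10).

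Some of the largest changes that cleared the overlap rule belonged to no list. SDCBP2, the syntenin-2 gene, had 39.3, 44.6 and 40.9 CPM in shAPE1#3 cells after ABS, against 20.2, 22.7 and 20.9 CPM unexposed, and rose 2.00-fold over both groups (log2 1.00 ± 0.08). LY6K, a GPI-anchored protein known from germ cells and tumours, rose by 1.10 ± 0.14, the tubulin-binding TPPP by 0.97 ± 0.13, the hexose transporter SLC2A12 by 0.93 ± 0.11, the amino acid oxidase IL4I1 by 0.89 ± 0.16 and the integrin subunit ITGAM by 0.86 ± 0.18. ITGAM was on the immune marker list, the summed level of which was 10.1 to 12.7 CPM after ABS and 9.84 to 13.2 CPM unexposed. Also higher were TRANK1 (0.90 ± 0.15), MYO15B (0.86 ± 0.11) and the antisense RNA AC002480.1 (0.82 ± 0.13), whose reads cannot be assigned to a strand without the counting setting. Among the lower genes, the adaptor genes SKAP1 and LAT2 fell by 0.65 (SE 0.13) and 0.60 (SE 0.11), TMEM154 by 0.54 (SE 0.07), the serine protease gene TMPRSS11E by 0.53 (SE 0.10) and SCML1, of the Polycomb group, by 0.51 (SE 0.09). The pseudogenes AC012512.1 (-0.63 ± 0.13) and DPY19L2P2 (-0.59 ± 0.15) may share reads with their parent genes, and the lincRNA AL121772.1 completed the set (-0.52 ± 0.13). Calls of ITGAM (adjusted p = 0.0721 in edgeR), AC002480.1 (0.0822), LAT2 (0.0537) and TMPRSS11E (0.0941) were lost without the libraries that hold TFF2. So were those of AC012512.1 (0.147), DPY19L2P2 (0.103) and AL121772.1 (0.159).

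Mucin, trefoil and other columnar genes, of interest because the columnar change of the oesophagus carries them, gave 11 higher and 0 lower of 18 tested by edgeR's quasi-likelihood test (list median 0.529). That count rests on libraries that stand apart. Without them 3 of 12 tested members were higher and 0 lower, with a median of 0.228. MUC5AC (chr11:1157953-1201138, plus strand) had 15.9, 10.1 and 18.7 CPM in shAPE1#3 cells after ABS, the libraries that hold TFF2, against 3.20, 2.49 and 3.84 CPM unexposed. In shAPE1#1 cells, where TFF2 was at most 0.317 CPM, it had 5.16, 6.59 and 6.24 CPM after ABS, against 4.59, 2.39 and 2.42 CPM unexposed. The exposures did not overlap in either group, and the log2 change was 2.23 in shAPE1#3 and 0.90 in shAPE1#1 cells (1.59 ± 0.22 over both). In shControl cells, under the same limit of TFF2, MUC5AC was at 23.0 to 25.2 CPM after ABS and 8.80 to 9.20 CPM unexposed. TFF3 was at 0.736 to 1.35 CPM in shAPE1#3 cells after ABS and at 0 CPM in all 6 unexposed shAPE1 libraries. MUC13, a membrane mucin, had a log2 change of 1.32 in shAPE1#3 and 1.11 in shAPE1#1 cells, and AGR2, a disulfide isomerase of mucin-making cells, one of 0.45 in shAPE1#3 and 0.58 in shAPE1#1 cells. What part TFF2-bearing RNA had in the level of MUC5AC was not tested.

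Squamous genes did not move together. Counts in this paragraph are to be read against the 7.45% of all tested genes called higher and the 4.61% called lower. Of 17 tested keratin, SPRR and related genes, SPRR2A (0.65 ± 0.15) and SPRR2D (0.56 ± 0.13) rose and SPRR3 (-0.31 ± 0.08) and SPRR1B (-0.39 ± 0.12, lost in 7 of the 12 fits without 1 library) fell, and reads of this clustered family may be shared among its members. Of 13 genes of acid and bicarbonate transport, 1 was called, the sodium-proton exchanger SLC9A2 (0.32 ± 0.09), and that call was lost in 4 of the 12 fits. Of 13 mitochondrially encoded mRNAs, MT-ND2 was called higher (0.18 ± 0.06) and MT-CO1 lower (-0.17 ± 0.05), and these calls were lost in 9 and 8 of the 12 fits. Without the libraries that hold TFF2, SPRR2A, SPRR2D, SPRR1B, SLC9A2, MT-ND2 and MT-CO1 were not called.

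**Figure D4:**
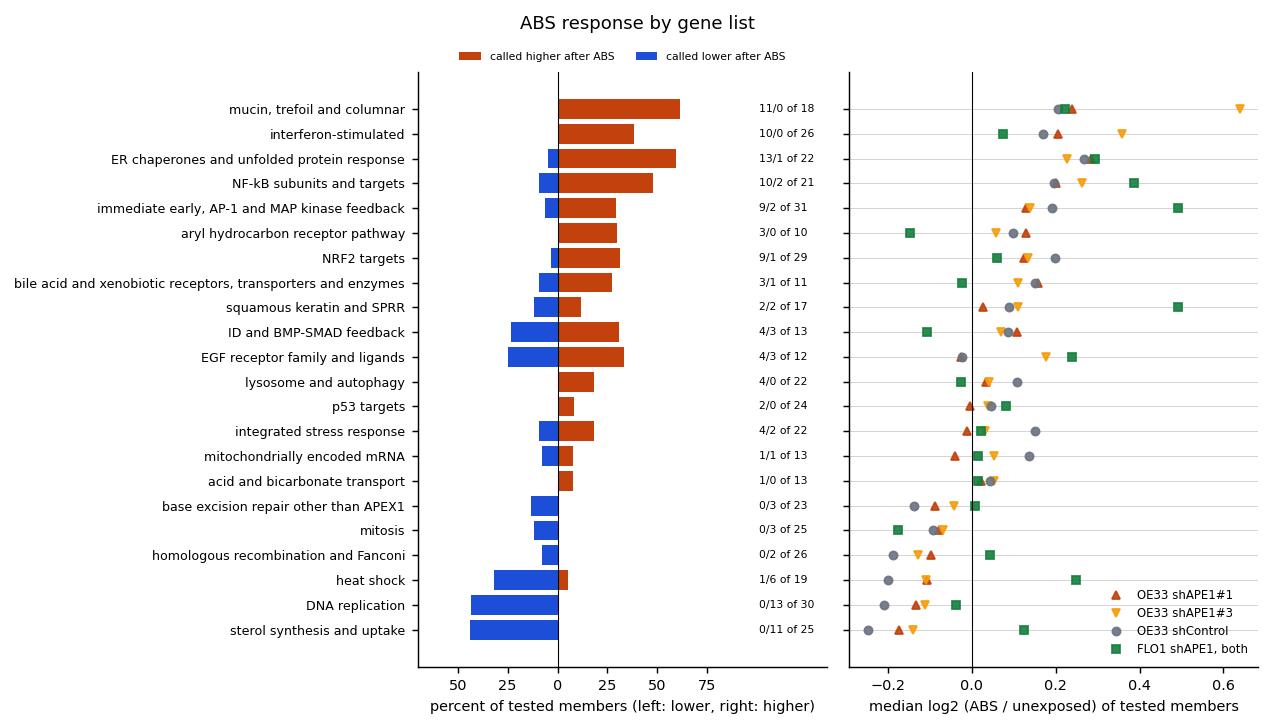
Gene lists by row. The left panel gives the percent of tested members called higher or lower after ABS in OE33 shAPE1 cells, and the right panel gives each list's median log2 change in shAPE1#1, shAPE1#3, shControl and FLO1 shAPE1 cells. In OE33 shAPE1 cells, ER chaperones (median 0.253) and interferon-stimulated genes (0.269) lie to the right of 0, sterol (-0.163) and DNA replication genes (-0.141) to the left, and the mucin list (0.529) rests on libraries that stand apart.

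The responses of the shRNA groups were then tested against each other. No gene differed between shAPE1#3 and shAPE1#1 cells after adjustment in edgeR, with 261 genes at an unadjusted p under 0.05 (1.73% of those tested), while DESeq2 called 3 (MUC6, VIM and TFF2). TFF2 is the gene by which the libraries of OE33-shAPE1#3-ABS were set apart, and VIM, an intermediate filament of mesenchymal cells, was at 3.58 to 4.84 CPM in shAPE1#3 cells after ABS and 2.95 to 3.47 CPM unexposed, and at 2.13 to 2.66 CPM in shAPE1#1 cells after ABS and 3.26 to 7.18 CPM unexposed. Over the genes called in the joint response the median standard error of this difference was 0.135 on the log2 scale. Comparing levels after ABS directly, 15 genes were higher in shAPE1#3 than in shAPE1#1 cells (0.0997% of those tested) and HOXB-AS3 was lower (0.00665%). The higher genes were MUC6, MUCL3, TFF2, TFF3, PIGR, CTSE, MUC5AC, TSPAN8, TFF1, MT-ND4, MT-ATP6, MT-ND2, MT-CYB, MT-CO1 and the nuclear copy MTATP6P1, after adjustment in edgeR. Between the unexposed groups no gene was called, with 1026 at an unadjusted p under 0.05 in edgeR (6.82%). Mitochondrial genes already held 3.87 to 4.06% of reads in unexposed shAPE1#3 cells, against 3.15 to 3.65% in unexposed shAPE1#1 cells.

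Most genes called in the depleted cells moved the same way in cells with the non-targeting shRNA. In OE33 shControl cells, 1306 of 15540 genes were called (8.40%), 916 higher (5.89%) and 390 lower (2.51%). Of the 1814 genes called in shAPE1 cells, 1767 (97.4%) had the same sign in shControl cells, against 74.2% of all genes, and the 811 genes called in both with 1 sign were 44.7% of the shAPE1 calls and 62.4% of the 1299 shControl calls tested in both. No gene was called in opposite directions. Across all genes Pearson's r was 0.432 and Spearman's rho 0.553. Genes called higher in shAPE1 cells had a median log2 change of 0.281 in shAPE1 and 0.303 in shControl cells, and those called lower had -0.258 in shAPE1 and -0.226 in shControl cells. Genes called higher in shControl cells had a median of 0.255 in shAPE1 and 0.401 in shControl cells. Those called lower in shControl cells had -0.223 in shAPE1 and -0.344 in shControl cells. Calling genes in a group favours large changes in that group, so these medians do not compare the sizes of the responses. By list, 12 ER chaperone genes rose and none fell in shControl cells (median 0.267), 10 sterol genes fell and none rose (-0.248), 13 DNA replication genes fell and none rose (-0.21), and 7 interferon-stimulated genes (0.169) and 13 NRF2 targets (0.199) rose and none fell. The integrated stress response had 4 higher and 2 lower members in shAPE1 cells, against 9 higher and 2 lower in shControl cells. Mitochondrially encoded mRNAs had 1 higher and 1 lower in shAPE1 cells, against 6 higher and 0 lower in shControl cells by edgeR. Whether any list differed between the cells was not tested.

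HSPA5 changed by 0.97 ± 0.05 in shAPE1 and 1.06 ± 0.06 in shControl cells, a difference of -0.10 with a 95% interval of -0.23 to 0.04. CYP1A1 changed by 1.29 ± 0.08 in shAPE1 and 1.22 ± 0.09 in shControl cells, a difference of 0.07 (-0.15 to 0.30). After adjustment in edgeR, the response differed between shAPE1 and shControl cells in 0 of 15540 genes, with 688 at an unadjusted p under 0.05 (4.43%), while DESeq2 called 24 of them, 7 with a higher and 17 with a lower response in shAPE1 cells. Named after their values were seen, those 24 included ATF3, the amino acid synthetase ASNS, TXNRD1, MVK and HSPA6, beside TFF2, LGALS4, CLDN18 and TSPAN8 of the columnar genes. ATF3 had 22.96, 30.8 and 37.6 CPM in shAPE1#3 and 29.8, 34.4 and 32.3 CPM in shAPE1#1 cells after ABS, and 12.9, 19.1 and 16.1 CPM in shControl cells after ABS. Unexposed, it had 20.9 to 22.9 CPM in shAPE1#3, 24.9 to 27.2 CPM in shAPE1#1 and 7.26 to 7.48 CPM in shControl cells. Every depleted library was above every shControl library of the same exposure. The log2 response was 0.38 ± 0.09 in shAPE1 and 1.14 ± 0.14 in shControl cells, and the difference of -0.76 did not pass the adjustment (95% interval -1.09 to -0.42, edgeR adjusted p = 0.179).

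Other differences of that order did not pass the adjustment either. FOSB changed by 0.82 in shAPE1 and 1.53 in shControl cells (difference -0.71, 95% interval -1.17 to -0.26). AKR1C1 changed by 0.99 in shAPE1 and 1.65 in shControl cells (-0.66, -1.06 to -0.26). MVK fell by 0.33 in shAPE1 and by 0.77 in shControl cells (0.44, 0.25 to 0.63), and HSPA6 by 0.35 in shAPE1 and by 1.04 in shControl cells (0.68, 0.37 to 0.99). IL1A, lower in shAPE1 cells by 0.67, had a log2 change of -0.03 ± 0.29 in shControl cells, but the interval of the difference (-1.32 to 0.02) included 0. The median standard error of the difference was 0.108 over the genes called in shAPE1 cells. Taking shAPE1#3 cells alone against shControl cells, TFF2 and TSPAN8 had a higher response (2 genes, 0.0129% of those tested), and both rest on the libraries that stand apart. The p that misses the threshold elsewhere does not show that depleted and control cells responded alike.

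Depleted FLO1 cells, another oesophageal adenocarcinoma line kept in DMEM, answered the same exposure differently, and the line and its medium cannot be told apart here. Across 15048 genes the log2 responses of OE33 and FLO1 shAPE1 cells had a Pearson r of 0.06 and a Spearman rho of 0.007. In FLO1 shAPE1 cells 2456 of 17784 genes were called (13.8%), 1366 higher (7.68%) and 1090 lower (6.13%). The 296 genes called in both lines with 1 sign were 16.3% of the OE33 calls and 12.9% of the 2289 FLO1 calls tested in both, and 158 were called in opposite directions. The difference itself was called for 1990 of 17784 genes (11.2%), 989 with a higher (5.56%) and 1001 with a lower response (5.63%) in OE33 cells, after adjustment in edgeR. With the libraries that hold TFF2 left out, which leaves OE33 shAPE1#1 cells and 2 libraries of FLO1 shAPE1#3 cells on each side, 107 differences were called, 35 higher and 72 lower.

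Both lines had a rise of HSPA5, by 0.88 ± 0.04 in FLO1 cells and with a difference of 0.08 ± 0.06 (edgeR adjusted p = 0.423). Of the ER chaperone list 16 members rose and none fell in FLO1 cells, NFKB2 rose there by 0.78 ± 0.05 and ID1 fell by 0.53 (SE 0.06). The AHR targets parted. CYP1A1 had a log2 change of -0.31 ± 0.11 in FLO1 cells, which was not called there (OE33 minus FLO1 1.60 ± 0.14, edgeR adjusted p = 3.74e-10), and AHRR fell there by 0.29 (difference 1.23 ± 0.12). OAS3 rose by 0.50 in OE33 and fell by 0.38 in FLO1 cells (difference 0.87 ± 0.10). DDIT3 fell in OE33 and rose by 0.52 ± 0.07 in FLO1 cells (-1.12 ± 0.11). HMGCS1 fell in OE33 and rose by 0.48 ± 0.05 in FLO1 cells (-0.94 ± 0.07), and of the sterol list 8 genes rose and none fell in FLO1 cells. Of the early genes 27 rose and none fell in FLO1 cells, with FOSB at 3.23 ± 0.14 (OE33 minus FLO1 -2.41 ± 0.21). Of the heat shock genes 11 rose and 1 fell in FLO1 cells, and HSPA6 rose by 3.40 ± 0.17 there (-3.76 ± 0.22). Of the DNA replication genes 7 fell and 3 rose in FLO1 cells. HYOU1 (0.50 ± 0.06) and SEL1L (0.55 ± 0.11) responded more in OE33 cells and MANF less (-0.49 ± 0.10), as OE33 minus FLO1 differences that were called.

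**Figure D5:**
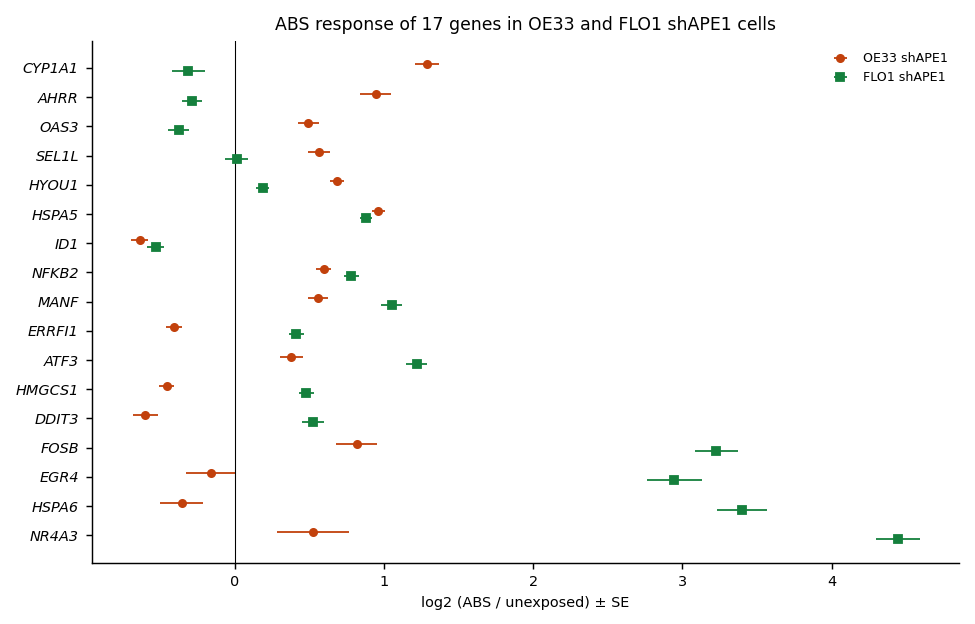
Log2 response to ABS of 17 genes in OE33 shAPE1 (circles) and FLO1 shAPE1 cells (squares), each with its SE and ordered by the difference between lines, from a fit of the 24 shAPE1 libraries. CYP1A1 and OAS3 lie higher in OE33 cells, HSPA5 lies at nearly the same value in both, and DDIT3, HMGCS1, FOSB and HSPA6 lie higher in FLO1 cells, where they are at 0.52, 0.48, 3.23 and 3.40.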

How the data were processed

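PolyA mRNA was sequenced, per the labels' protocols, from 36 cultures of OE33 and FLO1 cells in 12 groups of 3. Per the submitters' processing notes the tools were featureCounts of Subread 1.5.2, the aligner STAR 2.5.2b and the trimmer Trimmomatic 0.36, and the build was GRCh38. The annotation release and the strand and multimapping settings were not given in the sources used. The deposited table holds raw read counts per gene from the authors, with no normalisation. Gene names and coordinates came from GENCODE 29 by Ensembl ID, which matched 56898 of 57500 IDs, and the other 602 held 0.018% of counts.

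Counts were scaled by TMM, filtered with filterByExpr and tested with edgeR 4.0.16 (robust quasi-likelihood, limma 3.58.1, R 4.3.3) at a Benjamini-Hochberg adjusted p under 0.05 over all tested genes. The joint response was fitted to the 12 shAPE1 libraries with the shRNA group as a block. Each shRNA group and their difference used a fit with a coefficient per group, the shControl difference used all 18 OE33 libraries, and the FLO1 difference used the 24 shAPE1 libraries. Standard errors are the log2 change over the square root of F. CPM are counts scaled to a total of 1e6 without TMM. The 12 OE33 shAPE1 libraries held 20.7 M to 38.0 M counts and the series 20.7 M to 40.7 M, which bounds the precision of low genes. The 3 libraries of a group are described as independent replicates.

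The gene lists (22 lists, 490 genes) and the members were chosen with earlier results of these data known. Genes named were APEX1, up to 15 each way that changed most, if called, at a mean log2 CPM of 1 or more and without overlap within either shRNA group, up to 4 called members of each list with the largest change, and up to 8 each way for each difference. Other called list members are given from the same fit, and genes outside this rule are named as chosen after their values were seen. Promoters by that rule fell to the mucin list, which was set aside because of the libraries that stand apart, in favour of the interferon-stimulated list, and that of HSPA5 was chosen after its values were seen. Alternatives were DESeq2 1.42.0, its size factors in edgeR, no filter, a replicate block, no shRNA block, all 18 OE33 libraries, each library left out and, chosen after seeing the data, a GC correction and leaving out libraries with TFF2 at 1 CPM or more. The tests were tested on simulated data.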

Additional observations from a re-analysis of the deposited data

Results flagged for a closer look

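The ABS response differed between depleted OE33 and depleted FLO1 cells in 1990 genes, by a test of the difference itself, and the 16 genes named from it by rule are given here as OE33 minus FLO1 on the log2 scale. CYP1A1 (1.60) was at 26.9 to 32.3 CPM in OE33 cells after ABS. MT-TF, the mitochondrial phenylalanine tRNA, differed by 1.40, CREG2 by 1.39 and SLC4A8, a bicarbonate transporter, by 1.48. SUSD5 (3.20), MMP9 (2.52), AL590004.3 (1.80) and FAM78A (1.63) stayed under 0.5 CPM in all OE33 shAPE1 libraries, so their fitted values depend on the prior count. NR4A3, an early-induced nuclear receptor, differed by -3.92 and the early factor EGR4 by -3.11. HSPA6, the inducible HSP70 gene, differed by -3.76. FAM50B (-3.77), FRAS1 (-3.31), CD163L1 (-3.14), ATP6V0E2 (-2.93) and IL1RL1 (-2.76) stayed under 0.5 CPM in all FLO1 shAPE1 libraries, with the same reservation.

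Taking shAPE1#3 cells alone against shControl cells, the response differed in TFF2 (8.03) and TSPAN8 (1.35) by a test of the difference. Both rest on the 3 OE33-shAPE1#3-ABS libraries by which the libraries were set apart, and TFF2 was at most 0.317 CPM elsewhere in OE33 cells.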

How the results depend on the processing

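The joint response of 1814 genes was 1831 with DESeq2's size factors, 2294 with DESeq2, 1899 without a filter, 2184 with all 18 OE33 libraries, 1672 without the shRNA block, 2727 with a GC correction (1479 higher, 1248 lower) and 298 without the libraries that hold TFF2 (211 and 87). Leaving out 1 library gave 995 to 2445. The shAPE1#3 response (215) became 382 with DESeq2, 351 with all 18 OE33 libraries and 48 to 362 without 1 library. The shAPE1#1 response (333) became 675 with DESeq2, 537 without a filter, 735 with all 18 libraries and 109 to 509 without 1 library. The calls in both groups (143) became 264, 253 and 38 to 223 with DESeq2, with all 18 libraries and without 1 library. The difference of shAPE1#3 minus shAPE1#1 gave 3 calls with DESeq2, 8 without a filter and 0 to 1 without 1 library, and that of shAPE1 minus shControl 24, 11 and 0 to 1, with 27 after GC correction (6 higher, 21 lower). The FLO1 difference (1990) became 107 without the libraries that hold TFF2 (35 higher, 72 lower) and 1486 to 2551 without 1 library, and in that setting without TFF2 libraries MMP9 (-0.84) and FAM78A (-0.11) turned round. The cause of these moves was not tested. Settings that leave out libraries also hold fewer of them.

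Replicate numbers did not pair the samples, with correlations of same-numbered deviations of 0.017, 0.086 and 0.088 in shAPE1#3 cells and 0.039, -0.222 and -0.214 in shAPE1#1 cells. With the replicate number as a block the joint response had 1245 calls, shAPE1#3 cells 49, shAPE1#1 cells 105, both groups 37, the FLO1 difference 1496 and the other differences 0. Of the 95 named genes called in the joint response, 79 were called in all 12 fits without 1 library. Of these, 45 were also called under each other setting in which they were tested, and none changed direction. A gene filtered out of a setting was not counted as lost there. Differences of responses several times their standard error, such as that of ATF3, did not pass the adjustment.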
